A study of Macaca mulatta with 30 samples.

Results

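The genes described here are 9 components of the Hedgehog pathway, chosen by symbol from a fixed list: the ligand SHH, the receptor PTCH1, the co-receptor BOC, the ligand-binding inhibitor HHIP, the signal transducer SMO, the GLI inhibitor SUFU and the transcription factors GLI1, GLI2 and GLI3. Each was looked up in the count tables by the Ensembl rhesus identifier that carries its symbol. There were 30246 identifiers in the table for lung and 32386 in that for hippocampus, and 8 of the 9 genes were found in both. SHH had no matching identifier in either table and was not analysed here. All 8 matched genes passed the minimum read count in both tissues, where 17644 and 17390 genes were tested.

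Hedgehog ligands are secreted proteins that bind PTCH1 on the receiving cell. Unbound PTCH1 keeps SMO silent, and ligand binding frees SMO to act in the primary cilium, where SUFU normally holds the GLI proteins back. GLI2 serves mainly as an activator and GLI3 mainly as a repressor, whereas GLI1, PTCH1 and HHIP are themselves target genes whose transcript levels are widely read as the output of the pathway. In the developing lung the epithelium sends the ligand and the mesenchyme receives it, and in the developing brain the pathway sustains neural progenitors.

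Pregnant rhesus macaques with wild-type fetuses received an intramuscular injection of saline, of the clinical drug (Celestone, a mixture of betamethasone phosphate and betamethasone acetate, 0.25 mg/kg) or of betamethasone acetate alone (Beta-Ac, 0.125 mg/kg). Whole fetal lung, from fetuses labelled as gestational day 124 to 130, was sequenced from 3 control animals, 3 animals 4 h after the clinical drug, 3 animals 6 h after Beta-Ac, and 3 animals 5 days after each drug. Hippocampus, from fetuses of 130 to 136 days of gestation, was sequenced from 5 controls, 5 animals 5 days after the clinical drug and 5 animals 5 days after Beta-Ac, and 9 animals contributed both tissues. For these 9 the hippocampus labels give 131 to 136 days, which conflicts with the range on the lung labels. The early groups differ in formulation, dose and time, and these cannot be told apart.

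Library depth was 14.07 to 45.03 M assigned reads in lung and 18.28 to 29.3 M in hippocampus, and the lowest count behind any value of these genes was 124 reads in lung (GLI3) and 59 reads in hippocampus (HHIP). FKBP5, a glucocorticoid-induced gene used to check that the drug had acted, had a mean of 5.61 CPM in control lung, 173 CPM at 4 h after the clinical drug and 52.0 CPM at 6 h after Beta-Ac, where animal 17-254 had 106 CPM and the others 18.9 and 31.2 CPM. All 3 clinical-drug animals at 4 h were numbered in the 15 series and no Beta-Ac animal at 6 h was, so that animal series and treatment cannot be told apart there. No clinical-drug animal at 5 days was in the 15 series either. Between 4 h and 5 days after that drug, animal series and time cannot be told apart. The hippocampus labels conflict on the drug: the treatment and dose fields of the libraries titled for the clinical drug name Beta-Ac, and the reverse. Groups follow the titles, which match the lung labels of the same animals, and if the fields were right the values of the 2 drugs in hippocampus would exchange. Control replicate 5 in hippocampus, of sequencing run0164, stood apart, with a summed level of choroid plexus markers of 928 CPM against at most 20.2 CPM in any other library. Levels are CPM after TMM scaling within a tissue, n is the number of animals, and they are compared only within a gene because CPM is not corrected for length. A gene was called changed when it differed at least 1.5-fold and edgeR's quasi-likelihood test gave p below 0.05 and adjusted p below 0.1.

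In lung 4 h after the clinical drug, 4 of the 8 genes were called, of which 2 act at the cell surface and 2 in the nucleus. The co-receptor BOC and the inhibitor HHIP rose, and the transcription factors GLI2 and GLI3 fell. Of all 17644 genes tested in this comparison 7.4% were called, 3.46% as higher and 3.94% as lower. The median log2 fold change of the 8 genes was -0.12, against 0.02 over all tested genes. PTCH1 and GLI1, the other customary target genes, were not called, nor were SMO and SUFU.

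BOC (ENSMMUG00000013443) is a cell-surface protein that binds the ligand and presents it to PTCH1. Its level was 95.6, 73.4 and 75.0 CPM in the control lungs and 113, 126 and 135 CPM at 4 h after the clinical drug. Every treated lung was above every control lung, and the log2 fold change was 0.61 ± 0.14 (SE, n = 3 per group, edgeR adjusted p = 0.0116). The call was lost when treated animal 15-97 or control 15-101 or 16-113 was left out, with the log2 fold change then still at least 0.54.

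HHIP (ENSMMUG00000007968) binds Hedgehog ligands at the cell surface and takes them away from PTCH1. Control lungs had 37.4, 45.2 and 33.2 CPM, and lungs at 4 h after the clinical drug had 91.1, 73.6 and 75.3 CPM. The groups did not overlap, and the log2 fold change of 1.05 ± 0.27 (SE, n = 3 per group, edgeR adjusted p = 0.0245) was the largest of the 8 genes. It was called under all 22 alternative settings, between 0.94 and 1.18.

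GLI3 (ENSMMUG00000013614) is processed into a repressor of target genes when no ligand is present. It had 23.0, 20.8 and 25.9 CPM in control lung and 16.7, 9.27 and 10.2 CPM at 4 h after the clinical drug. The 3 treated values lay below the 3 control values, and GLI3 fell by 0.93 on the log2 scale (SE 0.22, n = 3 per group, edgeR adjusted p = 0.0174), a call that held under all 22 alternatives. GLI2 (ENSMMUG00000001868), the main activator among the GLI proteins, had 21.5, 22.3 and 24.0 CPM in control lung and 10.1, 14.7 and 16.7 CPM in treated lung. The groups again did not overlap, and GLI2 fell by 0.72 (SE 0.23, n = 3 per group, edgeR adjusted p = 0.0544). This call was lost when 15-81, 15-92, 15-101 or 16-113 was left out, when the decrease was at its smallest 0.55.

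The genes that were not called had intervals of different widths. GLI1, the target gene and amplifier of the response, had 70.3, 80.1 and 88.3 CPM in control lung and 47.0, 82.5 and 72.7 CPM at 4 h after the clinical drug. Animal 15-81 alone lay below the control range, and the log2 fold change of -0.24 had a 95% interval from -0.71 to 0.22. PTCH1 had 113, 113 and 143 CPM in control lung and 153, 101 and 111 CPM in treated lung, values that overlapped on both sides, with a log2 fold change of -0.01. SMO and SUFU, with log2 fold changes of -0.14 and -0.09, had the narrowest intervals, from -0.38 to 0.09 and from -0.28 to 0.10. SMO had 145.5, 155 and 143 CPM in control lung and 126.5, 141 and 134 CPM in treated lung. Its groups thus did not overlap either, although it was not called. The share of all genes with groups that do not overlap was not computed.

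**Figure D1:**
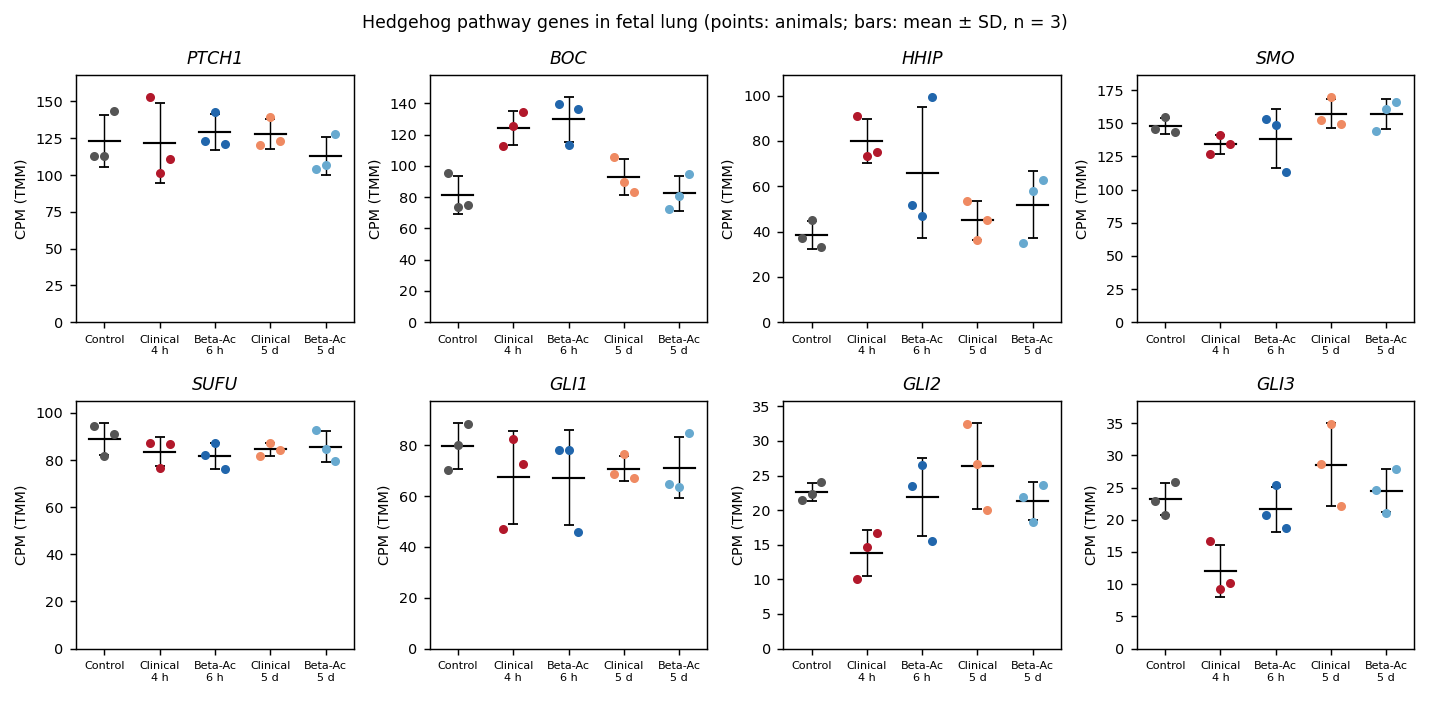
Level of the 8 Hedgehog pathway genes in fetal lung, in CPM after TMM scaling on axes that start at 0, by group. Points are animals, the horizontal bar is the mean and the vertical bar ± SD (n = 3 per group). The 4 h group lies above the controls for BOC and HHIP and below them for GLI2, GLI3 and SMO, of which SMO was not called.

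At 6 h after Beta-Ac, 1 of the 8 genes was called, against 0.442% of all genes tested in that comparison, 0.368% as higher. This gene was BOC, with 139, 113 and 136 CPM, again above all 3 control lungs. Its log2 fold change was 0.67 ± 0.14 (SE, n = 3 per group, edgeR adjusted p = 0.0589). The call was lost when only these 2 groups were fitted and when 16-123, 17-254 or any one control was left out, and the log2 fold change stayed between 0.60 and 0.79. HHIP was uneven among these animals, with 51.7 and 47.0 CPM in 16-123 and 16-131 and 99.4 CPM in 17-254. All 3 were above the highest control, and the log2 fold change of 0.77 ± 0.27 was not called (edgeR adjusted p = 0.26), ranging from 0.35 to 0.95 over the alternatives.

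None of the GLI genes was called at 6 h after Beta-Ac. GLI2 had 23.5, 26.5 and 15.6 CPM and GLI3 had 20.7, 25.4 and 18.7 CPM, both overlapping the controls, with log2 fold changes of -0.05 and -0.10. GLI1 had 78.2, 77.9 and 45.7 CPM. In 17-254, the animal with the highest FKBP5 of its group, HHIP was highest and the other members except BOC were lowest of its group. The same animal had the lowest summed level of mesenchymal markers of its group, 10170 CPM against 15610 and 14910 CPM. Its summed level of blood markers was the highest, 167.9 CPM against 40.6 and 32.4 CPM. Among the clinical-drug lungs at 4 h the animal with the highest FKBP5, 15-81 with 219 CPM, likewise had the highest HHIP and the lowest GLI1, GLI2 and SMO. It differed in having the highest GLI3, PTCH1 and SUFU and the lowest BOC, and its library was the deepest of the series. Its epithelial marker sum, 16830 CPM, was the highest of its group. Its mesenchymal sum, 14480 CPM, lay between the 12510 and 14840 CPM of 15-85 and 15-97. The part of drug exposure and of these marker levels in the pattern was not tested. The median log2 fold change of the 8 genes at 6 h after Beta-Ac was -0.07, against 0.02 over all tested genes.

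In the direct comparison of the early groups, GLI3 and GLI2 were lower at 4 h after the clinical drug than at 6 h after Beta-Ac, which made 2 of 8 genes called against 6.74% of all genes tested, 4.11% as lower. The log2 difference was -0.82 ± 0.22 for GLI3 (SE, n = 3 per group, edgeR adjusted p = 0.035) and -0.68 ± 0.23 for GLI2 (adjusted p = 0.0665). The values of GLI2 overlapped between the groups, since 17-254 at 15.6 CPM lay below 16.7 CPM in 15-97. Neither gene was called when only these 2 groups were fitted or when 15-85 was left out, and GLI2 was also lost without the read-count filter, with Benjamini-Hochberg adjustment, and without 15-81, 16-123 or 16-131; GLI3 was also lost without 15-97. BOC differed by -0.06 and HHIP by 0.28 between these groups, and neither was called.

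**Figure D2:**
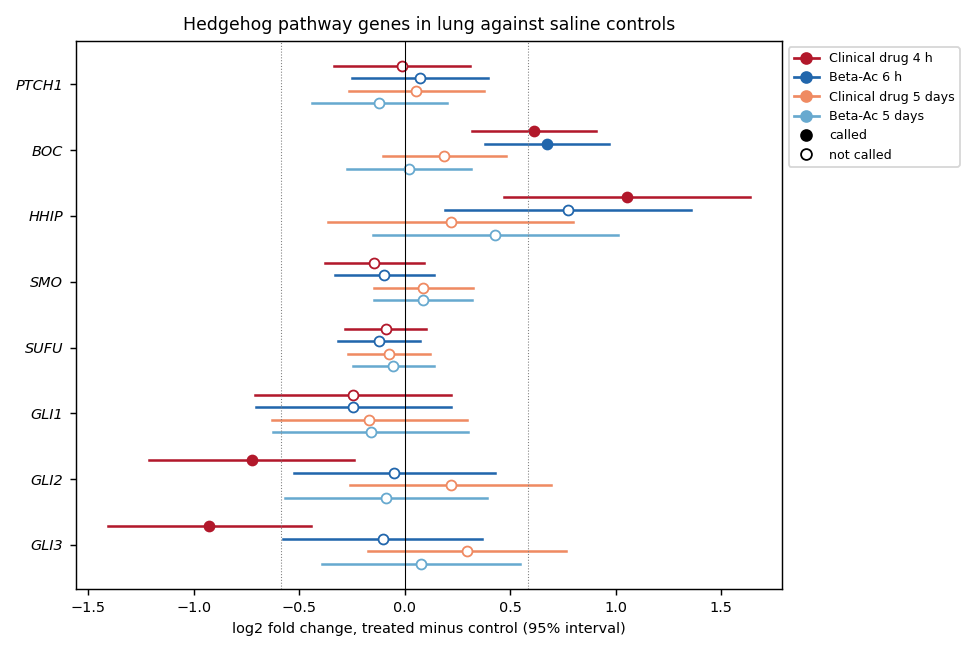
Log2 fold change of each gene in lung, treated minus control, with its 95% interval, for the 4 treated groups (n = 3 animals per group). Filled points were called by the edgeR test, open points were not, dotted lines mark a fold of 1.5 in either direction, and the points of the 5-day groups are all open.

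By 5 days none of the 8 genes in lung was called against control. This held for both drugs by edgeR, none had an unadjusted p below 0.05, and DESeq2 called 0 in either comparison. Of all genes tested, edgeR called 0% after the clinical drug and 0.00567% after Beta-Ac. DESeq2 called 16 and 40 of the 17644 genes in these comparisons. BOC had 106, 89.5 and 83.2 CPM 5 days after the clinical drug and 72.2, 80.7 and 94.5 CPM after Beta-Ac, both overlapping the controls. HHIP had 53.3, 36.3 and 45.1 CPM after the clinical drug and 35.1, 57.9 and 62.8 CPM after Beta-Ac, so that the largest log2 fold change at 5 days was 0.43 for HHIP after Beta-Ac (95% interval -0.15 to 1.01). GLI3 had 28.7, 34.9 and 22.1 CPM after the clinical drug and 24.6, 21.1 and 27.9 CPM after Beta-Ac. GLI2 had 32.4, 26.6 and 19.99 CPM after the clinical drug and 21.9, 18.3 and 23.7 CPM after Beta-Ac. Between the drugs at 5 days 0 of the 8 genes and 0% of all genes were called by edgeR, none of the 8 had an unadjusted p below 0.05, and DESeq2 called none of the 8. The differences ran from -0.21 for HHIP to 0.31 for GLI2, with an interval for GLI2 from -0.17 to 0.78.

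The change from the early to the late time was tested within each drug. In the clinical-drug animals time and animal series cannot be told apart. For the clinical drug 3 of the 8 genes differed between 4 h and 5 days, against 10.4% of all genes, 4.47% as higher at 4 h and 5.92% as lower. GLI3 was lower at 4 h by a log2 difference of -1.22 ± 0.22 (SE, n = 3 per group, edgeR adjusted p = 0.00254) and GLI2 by -0.94 ± 0.23 (adjusted p = 0.0119), with no overlap between the times for either gene. HHIP was higher at 4 h by 0.83 ± 0.27 (adjusted p = 0.0458), and this call was lost without 16-120 or 16-126. BOC was 0.42 ± 0.14 higher (adjusted p = 0.0452), which is under the 1.5-fold minimum. For Beta-Ac 1 of the 8 genes differed between 6 h and 5 days, against 0.261% of all genes, 0.227% as higher. It was BOC, by 0.65 ± 0.14 (adjusted p = 0.0903), and this call was lost under 15 of 22 alternatives, RLE scaling and Benjamini-Hochberg adjustment among them.

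By mean level in lung, BOC was highest at 6 h after Beta-Ac (130 ± 14.2 CPM, SD, n = 3) and at 4 h after the clinical drug (124 ± 11.01 CPM), which overlapped, and the remaining groups, from 81.3 to 92.7 CPM, overlapped one another. HHIP ran from 80.0 ± 9.64 CPM at 4 h after the clinical drug through 66.0 ± 29.0 CPM at 6 h after Beta-Ac, 52.0 ± 14.8 and 44.9 ± 8.50 CPM at 5 days after Beta-Ac and the clinical drug, to 38.6 ± 6.11 CPM in controls, and the SDs of neighbours in that order overlapped. GLI3 was lowest at 4 h after the clinical drug (12.1 ± 4.07 CPM), and the other 4 groups, from 21.6 to 28.6 CPM, overlapped. GLI2 was likewise lowest there (13.8 ± 3.36 CPM), with 21.3 to 26.3 CPM elsewhere. GLI1 means were between 67.2 and 79.6 CPM, PTCH1 between 113 and 129 CPM, SMO between 134 and 157 CPM and SUFU between 81.8 and 88.9 CPM, and none of these 4 genes was called in any of the 8 lung comparisons.

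Some marker levels are given here because the lung was sequenced whole, and in such samples fewer cells of a type and less RNA per cell cannot be told apart. Epithelial markers, which include surfactant genes, summed to 10800 to 16830 CPM at 4 h after the clinical drug and 6507 to 9561 CPM in controls (7 of 8 markers matched, all above 0). Endothelial markers summed to 1720 to 2392 CPM against 2425 to 2598 CPM (4 of 5 matched). Mesenchymal markers, of the cells that respond to Hedgehog ligands in lung, summed to 12510 to 14840 CPM against 11380 to 17170 CPM (6 of 8 matched) and overlapped. At 6 h after Beta-Ac the epithelial sum was 7628 to 12900 CPM and overlapped the controls, whereas the endothelial sum of 2255 to 2326 CPM lay below all controls and the airway sum of 206 to 471 CPM lay above the 63.0 to 175 CPM of the controls (4 of 5 airway markers matched). The mesenchymal sum at 6 h after Beta-Ac was 10170 to 15610 CPM and overlapped the controls, with the lowest value in 17-254. Airway markers summed to 77.2 to 318 CPM at 4 h after the clinical drug and overlapped the controls. At 5 days after Beta-Ac the epithelial sum of 9737 to 11590 CPM lay above all controls. The endothelial sum of 1971 to 2125 CPM there lay below all controls. Both sums overlapped the controls at 5 days after the clinical drug. The part of these levels in the results for BOC, HHIP, GLI2 and GLI3 was not tested.

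A wider list of 39 pathway genes, covering ligands, ligand release, receptors, cilium proteins, kinases and target genes, gave 30 matches, of which 29 were tested in lung. At 4 h after the clinical drug 3 of the 29 were called, all lower, against 7.4% of all genes called and 3.94% called as lower, and 20 of the 29 had a log2 fold change below 0, against 47.35% of all genes. The median was -0.17, against 0.02 over all tested genes. CCND1, the cyclin D1 gene and a target of GLI proteins among other factors, had 163, 144 and 184 CPM in control lung and 62.8, 93.5 and 90.4 CPM in treated lung. The groups did not overlap, and CCND1 fell by 1.00 on the log2 scale (SE 0.18, n = 3 per group, edgeR adjusted p = 0.00349). FOXF2, a mesenchymal forkhead factor downstream of Hedgehog signalling, had 32.7, 24.7 and 22.9 CPM in control lung and 13.4, 12.03 and 17.3 CPM in treated lung. The groups were separate here too, and FOXF2 fell by 0.91 (SE 0.18, adjusted p = 0.00521). Both calls held under all 22 alternatives. DISP1, which releases the lipid-modified ligand from the cell that makes it, fell by 0.69 (SE 0.22, adjusted p = 0.0592) with overlapping groups, as 15-97 had 177 CPM and control 16-113 had 159 CPM, and the call was lost without 15-81, 15-85, 15-92 or 15-101 and with only the 2 groups fitted.

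**Figure D3:**
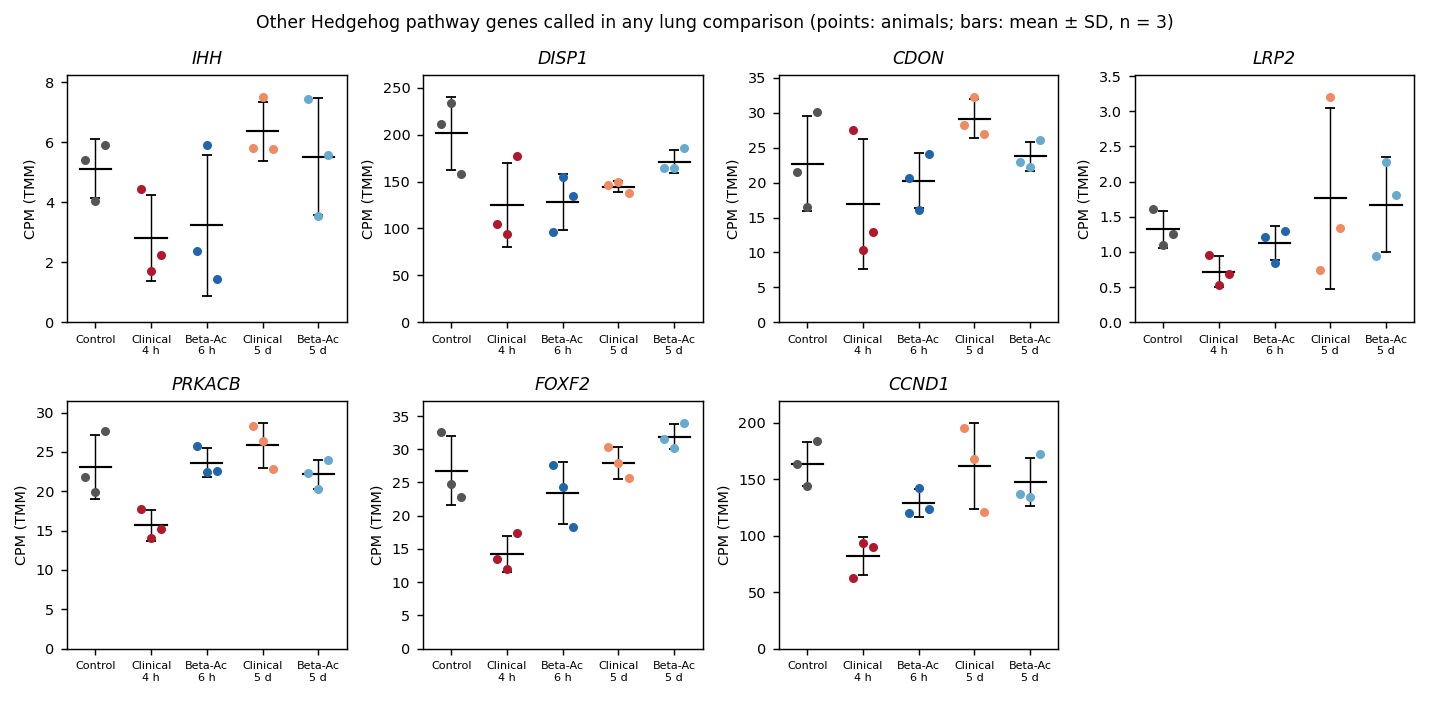
Level in fetal lung, in CPM on axes that start at 0, of the 7 other pathway genes called in any lung comparison. Points are animals, the horizontal bar is the mean and the vertical bar ± SD (n = 3 per group), and CCND1, FOXF2 and PRKACB are lowest at 4 h after the clinical drug with no overlap with the controls.

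At 6 h after Beta-Ac 0 of the 29 pathway genes were called by edgeR or DESeq2, and 1 had an unadjusted p below 0.05, against 11.5% of all genes. This was DISP1, with 96.0, 155 and 135 CPM, below all 3 controls (211.9, 234 and 159 CPM), and a log2 fold change of -0.65 ± 0.22 (SE, n = 3 per group, edgeR adjusted p = 0.247). The next smallest p was that of CSNK1A1, a casein kinase that acts on GLI proteins and SMO, with -0.15. Compared with 6 h after Beta-Ac, lung at 4 h after the clinical drug was lower for FOXF2 (-0.71, edgeR adjusted p = 0.0254), CCND1 (-0.65, adjusted p = 0.0381) and PRKACB, a catalytic subunit of the kinase that primes GLI2 and GLI3 for processing (-0.59, adjusted p = 0.0239), so that 3 of 29 were called, all lower, against 6.74% of all genes called and 4.11% called as lower. None of the 3 was called when only these 2 groups were fitted. FOXF2 was also lost without 16-123, CCND1 without 15-81 or 16-131, and PRKACB without 15-85, 15-97 or 16-123, without the read-count filter and with DESeq2.

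Between 4 h and 5 days after the clinical drug 6 of the 29 pathway genes were called, all lower at 4 h, against 10.4% of all genes called and 5.92% called as lower. FOXF2 (-0.97, edgeR adjusted p = 0.00243), CCND1 (-0.98, adjusted p = 0.00304) and PRKACB (-0.72, adjusted p = 0.00458) were called under all 22 alternatives. IHH, the Indian hedgehog ligand, had 4.45, 1.72 and 2.25 CPM at 4 h and 5.81, 7.51 and 5.79 CPM at 5 days. These values did not overlap, and the log2 difference was -1.14 ± 0.46 (SE, n = 3 per group, edgeR adjusted p = 0.0903). CDON, a co-receptor related to BOC, was lower by -0.76 (adjusted p = 0.0844) and the endocytic receptor LRP2 by -1.25 (adjusted p = 0.0874), both with overlapping groups, and LRP2 lay between 7 and 95 reads in these libraries. The calls of IHH and LRP2 were each lost under 10 of 22 alternatives and that of CDON under 8, among them the omission of 15-85, 15-97, 16-120 or 16-126 for all 3 genes. Without 16-120 the LRP2 difference was its smallest, -0.49.

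At 5 days 0 of the 29 pathway genes were called after either drug by edgeR or DESeq2. After the clinical drug 3 had an unadjusted p below 0.05, against 4.39% of all genes, and the smallest belonged to HHAT, which attaches palmitate to the ligand (-0.44), and ARRB2, a beta-arrestin (0.25, edgeR adjusted p = 0.932 for both). After Beta-Ac 1 did, against 6.43% of all genes, CSNK1A1 (-0.19, adjusted p = 0.693), followed by the ciliary motor gene KIF3A (0.40). Between the drugs 1 did, against 3.15% of all genes, HHAT (-0.36, adjusted p = 0.999), followed by BMP4, a signalling molecule downstream of the pathway (0.29). Between 6 h and 5 days after Beta-Ac no pathway gene was called by either tool and 1 had an unadjusted p below 0.05, against 7.91% of all genes, FOXF2 (-0.45, adjusted p = 0.47), with the cilium gene EVC2 next (0.26).

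In hippocampus, 5 days after treatment, none of the 8 genes was called by edgeR in any of the 3 comparisons. After the clinical drug 7.86% of all 17390 genes tested were called against control, 5.35% as lower, and after Beta-Ac and between the drugs 0% were called. At an unadjusted p below 0.05 there was 1 of the 8 genes in each comparison, SUFU for the clinical drug and HHIP for Beta-Ac and between the drugs, while 30.6%, 12.3% and 13.5% of all genes reached that level. Control replicates 1, 2 and 4 were sequenced in run0024 and run0162, which held no treated animal. With the sequencing run as a block edgeR also called none of the 8 genes. After the clinical drug 958 of all genes were then called, against 1366 without the block. DESeq2 called none of the 8 in the comparisons with control and 1, HHIP, between the drugs. The median log2 fold change of the 8 genes was -0.06 after the clinical drug and 0.01 after Beta-Ac, against -0.02 and -0.01 over all genes.

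HHIP showed the widest separation between the drugs in hippocampus. It had 12.5, 8.38, 8.70, 9.70 and 9.08 CPM after the clinical drug and 7.002, 3.95, 4.12, 5.75 and 2.95 CPM after Beta-Ac. Every clinical-drug value was above every Beta-Ac value, from which the same order within each run with animals of both drugs follows. The log2 difference, clinical drug minus Beta-Ac, was 1.02 ± 0.30 (SE, n = 5 per group, edgeR adjusted p = 0.226), and it was 0.96 within run1630 and 1.104 within run0164, 2 fits chosen after seeing the data. DESeq2 gave an adjusted p of 0.0405, the single alternative of 26 in which the gene was called.

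Control hippocampus spanned both drug groups for HHIP, with 2.95, 7.54, 8.54, 7.41 and 11.9 CPM. The log2 fold change was 0.33 after the clinical drug (95% interval -0.29 to 0.95) and -0.69 after Beta-Ac (-1.31 to -0.06, edgeR adjusted p = 0.364). Within run1630 the Beta-Ac value was -0.76 and within run0164 -1.43, each against a single control. Markers of hippocampal neurons summed to 503 to 595 CPM after the clinical drug, 280 to 423 CPM after Beta-Ac and 262 to 506 CPM in controls (5 of 5 matched, all above 0), so that the drug groups did not overlap for these markers either. Oligodendrocyte precursor markers were also separate between the drugs, with 327 to 438 CPM after the clinical drug, 279 to 313 CPM after Beta-Ac and 277 to 377 CPM in controls (2 of 3 matched), and oligodendrocyte markers overlapped, with 186 to 356 CPM after the clinical drug and 131 to 214 CPM after Beta-Ac (3 of 4 matched). The part of these levels in the HHIP values was not tested.

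SUFU was the steadiest of the 8 genes in hippocampus. It had 65.1, 64.4, 62.9, 55.6 and 62.6 CPM in controls and 68.6, 65.6, 71.5, 70.1 and 72.5 CPM after the clinical drug. The groups did not overlap, although the lowest treated value, 65.6 CPM, lay just above the highest control, and the log2 fold change was 0.17 ± 0.07 (SE, n = 5 per group, edgeR adjusted p = 0.14). After Beta-Ac it had 59.6 to 69.9 CPM, between and across both groups. With the sequencing run as a block the value for the clinical drug was 0.15 (adjusted p = 0.303).

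The SMO comparison rested on a single control library. Control replicate 5, the one with high choroid plexus markers, had 83.0 CPM, and the other 4 controls had 31.1 to 37.2 CPM. The clinical-drug animals had 32.7 to 44.4 CPM and the Beta-Ac animals 33.4 to 54.5 CPM. With all controls the log2 fold changes were -0.14 and -0.07, and without that control they were 0.22 (edgeR adjusted p = 0.306) and 0.29 (adjusted p = 0.395). BOC also changed sign without it, from -0.10 to 0.12 for the clinical drug and from -0.18 to 0.04 for Beta-Ac, and its controls ranged from 20.1 to 60.2 CPM.

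The transcription factors and PTCH1 overlapped between all groups in hippocampus. GLI1 had 5.90, 5.13, 8.74, 14.2 and 10.6 CPM in controls, 5.26, 4.47, 14.6, 5.55 and 7.64 CPM after the clinical drug, and 10.3, 6.88, 19.8, 5.72 and 16.3 CPM after Beta-Ac. The SD of GLI1 was 41.1% of the mean in controls, 55.0% after the clinical drug and 51.5% after Beta-Ac, and the 95% interval of the log2 fold change was -1.08 to 0.59 for the clinical drug and -0.43 to 1.24 for Beta-Ac. PTCH1 followed GLI1 across the animals. It was highest in replicate 4 (127 CPM) among controls, in 16-126 (124 CPM) after the clinical drug and in replicate 5 (159 CPM) and 16-136 (148 CPM) after Beta-Ac, the animals with the highest GLI1 of their groups. GLI2 had 6.55 to 11.2 CPM in controls, 6.74 to 9.27 CPM after the clinical drug and 8.28 to 11.4 CPM after Beta-Ac, and GLI3 had 21.6 to 27.8, 18.3 to 30.0 and 15.2 to 28.5 CPM.

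**Figure D4:**
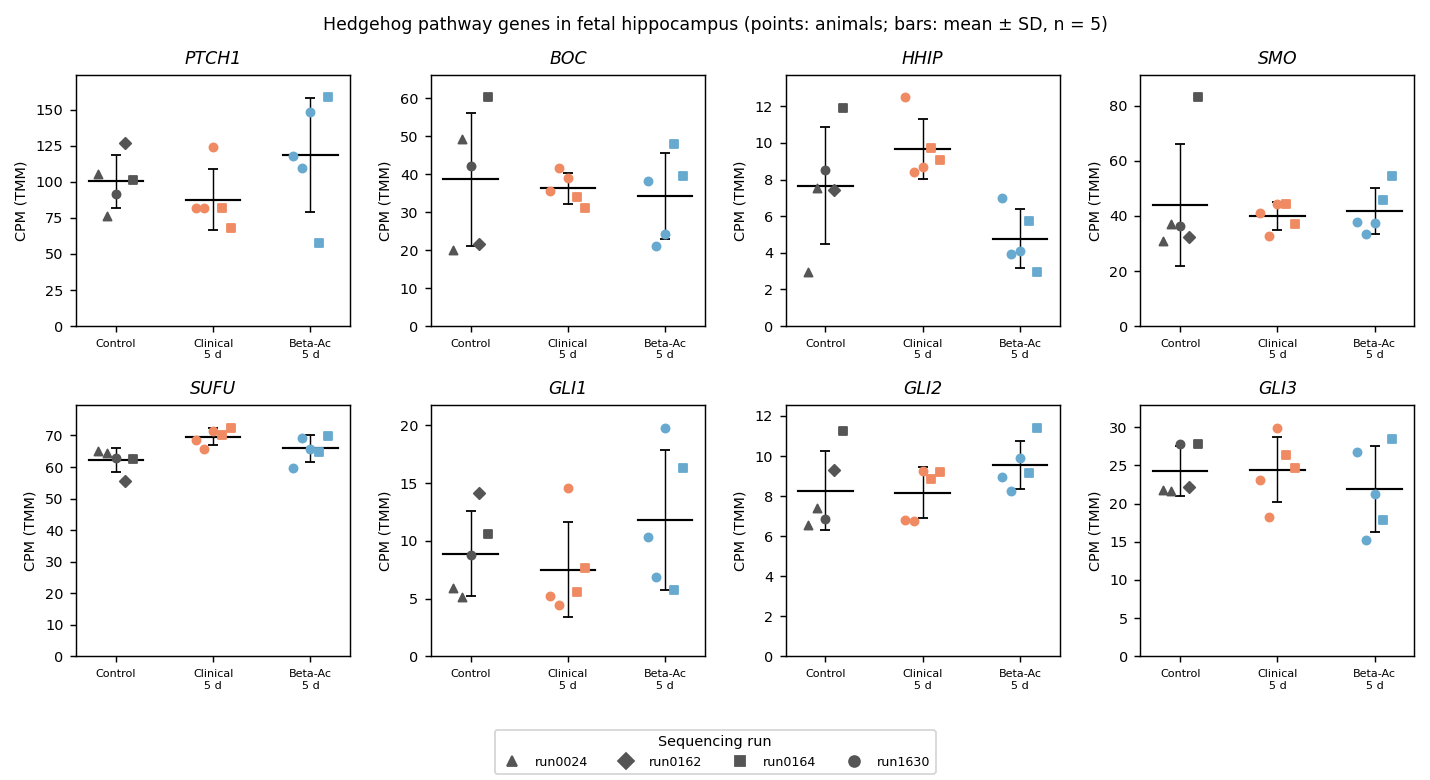
Level of the 8 genes in fetal hippocampus 5 days after treatment, in CPM after TMM scaling on axes that start at 0. Points are animals with a symbol for the sequencing run, bars are the mean ± SD (n = 5 per group), and the clinical-drug and Beta-Ac animals are separate for HHIP, while 1 control of run0164 lies above all other animals for SMO.

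Of the wider pathway list 30 genes were tested in hippocampus, and 1 was called by edgeR, as lower after the clinical drug. Of all genes 7.86% were called in that comparison, 5.35% as lower. SCUBE1, of the family of secreted proteins that help release the ligand, had 10.8, 15.4, 6.81, 12.6 and 6.199 CPM in controls and 4.27, 7.05, 3.08, 4.77 and 4.80 CPM after the clinical drug. The highest treated value lay above control replicates 3 and 5, and SCUBE1 fell by 1.12 on the log2 scale (SE 0.30, n = 5 per group, edgeR adjusted p = 0.0275). Both of those controls were sequenced in runs shared with treated animals. With the run as a block the log2 fold change was -0.45 (adjusted p = 0.427), within run1630 it was -0.52 and within run0164 -0.36, and the call was lost in all of these fits. With the run as a block edgeR called 958 of the 17390 genes tested after the clinical drug. Among them were 3 other genes of the 30, all lower: BMP4 (-2.46, adjusted p = 0.0848), GPC3 (-1.87, adjusted p = 0.0984) and HHAT (-1.28, adjusted p = 0.0868). In all 3 genes control replicate 5 had the highest control value, 41.5 CPM of BMP4, 13.8 CPM of GPC3 and 7.96 CPM of HHAT, and none was called within run1630, where BMP4 was 0.53 higher after the clinical drug, or when only the runs with all groups were fitted. GPC3 is a glypican that binds Hedgehog ligands and had 4.55, 3.34, 5.13, 6.82 and 13.8 CPM in controls and 1.71 to 4.11 CPM after the clinical drug. Its log2 fold change without the block was -1.17 (edgeR adjusted p = 0.125), and it was called by DESeq2 and, with edgeR, also with Storey q-values, with only the 2 groups fitted, and without Beta-Ac replicate 2 or 4.

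After the clinical drug 23 of the 30 pathway genes in hippocampus had a log2 fold change below 0, against 51.91% of all genes, with a median of -0.23 against -0.02 over all genes. An unadjusted p below 0.05 was reached by 11 of the 30, against 30.6% of all genes. These values are from the edgeR fit without the run as a block, and control replicates 1, 2 and 4 were in runs without treated animals. After Beta-Ac 0 of 30 were called by edgeR or DESeq2 and 6 had an unadjusted p below 0.05, against 12.3% of all genes, with GSK3B, a kinase that phosphorylates GLI proteins (-0.56, edgeR adjusted p = 0.24), and CSNK1A1 (0.34, adjusted p = 0.32) having the smallest p. Between the drugs 0 of 30 were called by edgeR and 6 had an unadjusted p below 0.05, against 13.5% of all genes. DESeq2, and edgeR with the run as a block, called GPR161, a ciliary receptor that restrains the pathway, which had 71.6 to 96.1 CPM after the clinical drug and 51.9 to 64.8 CPM after Beta-Ac, with no overlap. Its edgeR log2 difference was 0.59 (adjusted p = 0.208, or 0.0986 with the run as a block), and it had the smallest p, followed by GRK2, the kinase that phosphorylates SMO (-0.28, adjusted p = 0.256).

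The 3 control animals with both tissues allow the levels to be set side by side, although the tissues were prepared and scaled separately and no test was made. The reads were also aligned with different tools. The count tables held partly different identifiers, 30246 in lung and 32386 in hippocampus, with 42060 in either. The part of these differences in the ratios was not tested. GLI1 had 70.3 to 88.3 CPM in lung and 5.13 to 8.74 CPM in hippocampus, a ratio of means of 12.1, the largest of the 8 genes, and 10.1 to 15.6 within single animals. HHIP followed with a ratio of 6.09 (3.89 to 12.7 within animals), then SMO with 4.24, GLI2 with 3.27 and BOC with 2.18. SUFU (1.39) and PTCH1 (1.35) were close to equal in the tissues, and GLI3 had a ratio of 0.979. The 2 target genes GLI1 and PTCH1 had different ratios, and so did the factors GLI2 and GLI3.

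**Figure D5:**
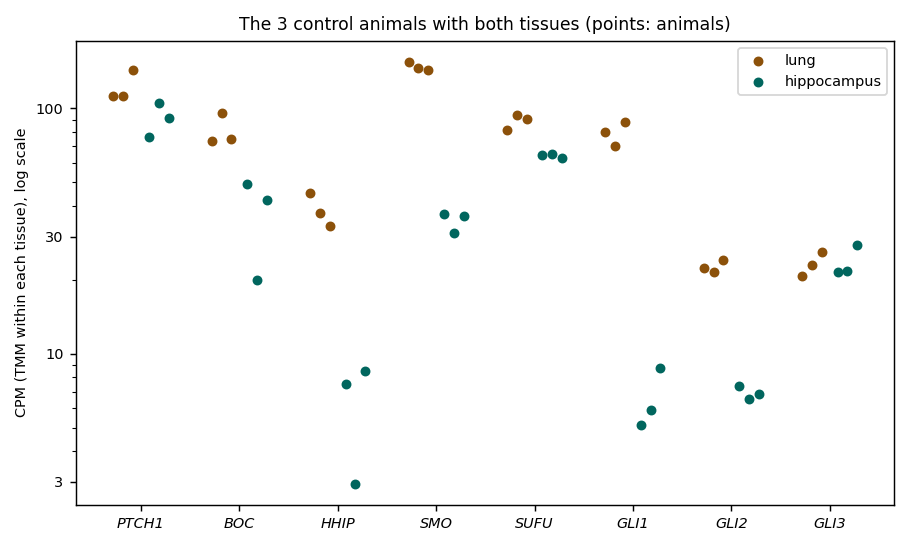
Level of the 8 genes in lung and hippocampus of the 3 control animals with both tissues, in CPM scaled within each tissue, on a log axis. Points are animals, and the tissues lie farthest apart for GLI1 and HHIP and together for GLI3.

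Pearson correlations of log2 CPM over the 15 libraries of a tissue describe which genes followed the members most closely; the libraries share treatment groups, and the correlations were not tested. In lung the genes most like GLI2 were KIF21B (0.911), PSD (0.906) and CCND1 (0.896), and those most like HHIP were LRRK2 (0.913), PIK3C2A (0.877) and IFNLR1 (0.873). GLI1 was closest to CUEDC2 (0.905), PCDHAC2 (0.861) and SDC2 (0.835), and PTCH1 to BICC1 (0.911), FOXJ3 (0.854) and DDX6 (0.842). In hippocampus PTCH1 was among the 3 genes most like GLI1 (0.814), after MASP1 (0.862) and PHF19 (0.861), whereas in lung the correlation of GLI1 with PTCH1 was -0.09. The genes most like PTCH1 in hippocampus were RTP5 (0.935), NRP2 (0.925) and CARTPT (0.923), those most like GLI2 were RAB34 (0.911), CRB2 (0.854) and MIA (0.833), and those most like HHIP were FA2H (0.894), KREMEN2 (0.885) and TGM1 (0.863). Among the 8 genes in lung HHIP went with BOC (0.702) and against GLI2 (-0.70), and GLI2 went with GLI3 (0.707).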

How the data were processed

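Raw counts of reads per Ensembl gene, as deposited by the authors, were used for 15 lung and 15 hippocampus libraries. Per the labels the lung reads were aligned with Bowtie 1.2.1.1 and counted with featureCounts 1.5.1, and the hippocampus reads with Bowtie2 and featureCounts after poly(A) selection; strand use in counting is not given in the sources used here. Identifiers were matched to symbols through an Ensembl rhesus table. The members and gene lists were chosen with earlier results of these data known. Genes with at least 7 reads in 3 lung or 5 hippocampus libraries were tested with edgeR 4.0.16 (TMM, quasi-likelihood F test, all groups of a tissue in 1 fit, R 4.3.3), with Storey q-values in lung and Benjamini-Hochberg values in hippocampus. Intervals are 95% intervals from that fit. CPM used TMM library sizes, and r used log2 CPM with a prior count of 2. All 8 members, every called pathway gene or otherwise the 2 of smallest p, and FKBP5 are named; GPC3, HHAT and BMP4 in hippocampus were added after their calls under alternatives were seen. Alternatives were RLE scaling, other filters, DESeq2 1.42.0, only the groups compared, the other adjustment, no fold minimum, run as a block, and each animal left out. Animals of groups not compared were among those left out, and dropping the fold minimum cannot lose a call. Scripts were tested on simulated data. Replicates are separate animals. The low count of 59 reads has a counting error of 13.0%. No sequences are given.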

Additional observations from a re-analysis of the deposited data

Results flagged for a closer look

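In hippocampus, groups of 5 animals were tested for a value far from the others with Dixon's criterion, and 3 of 24 groups had one, where chance alone gives about 1 in 20. PTCH1 was 124 CPM in 16-126 after the clinical drug, with the nearest value at 82.1 CPM. SMO was 83.0 CPM in control replicate 5, with the nearest at 37.2 CPM. SUFU was 55.6 CPM in control replicate 4, with the nearest at 62.6 CPM.

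In lung, 3 of the 8 members differed between the early and the late time after the clinical drug in the edgeR test, and 1 after Beta-Ac. Of all genes 10.4% and 0.261% were called in these comparisons. For the clinical drug, time and animal series cannot be told apart. After the clinical drug the log2 difference, 4 h minus 5 days, was 0.83 for HHIP (adjusted p = 0.0458), -0.94 for GLI2 (adjusted p = 0.0119) and -1.22 for GLI3 (adjusted p = 0.00254). After Beta-Ac, 6 h minus 5 days, it was 0.65 for BOC (adjusted p = 0.0903), a call lost under 15 of 22 alternatives.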

How the results depend on the processing

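Among the 8 members, 4 were called at 4 h after the clinical drug, and this number was 2 to 4 with each animal left out. At 6 h after Beta-Ac 1 was called, 0 with only the 2 groups fitted and 0 to 1 with each animal left out. Between the early groups 2 were called, 1 without the read-count filter, 0 with only the 2 groups fitted, 1 with Benjamini-Hochberg adjustment and 0 to 3 with each animal left out. Between 4 h and 5 days after the clinical drug 3 were called, 2 to 3 with each animal left out and 4 without the fold minimum, which adds BOC. Between 6 h and 5 days after Beta-Ac 1 was called, and 0 with RLE scaling, with only the 2 groups fitted or with Benjamini-Hochberg adjustment, and 0 to 1 with each animal left out. In hippocampus 0 were called after the clinical drug, but 1, SMO, within run0164, a fit chosen after seeing the data whose lone control, replicate 5, is assumed to vary like the other groups; between the drugs it was 0 by edgeR and 1, HHIP, by DESeq2. The cause of these changes was not tested. The number called was 0 under every alternative for both drugs at 5 days in lung, between them, and after Beta-Ac in hippocampus.

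Of 654 alternative values of 29 single-gene results, 0 changed sign. These results were picked for a call or, among members, for p below 0.05 in the main edgeR fit. The other adjustment and no fold minimum keep the fold changes of that fit, so the 0 is no measure of stability. The fold changes of SMO and BOC in hippocampus, which were not picked, did change sign without control replicate 5. Differences under 1.5-fold could not be called, by the rule itself. In hippocampus the run as a block changed which pathway genes were called. Library runs were known for hippocampus only.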
